A study of Mus musculus with 6 samples.

Results

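Ribosomal protein genes encode the proteins that, together with ribosomal RNA, make up the small and the large subunit of the cytosolic ribosome. The present account covers all protein-coding genes of the deposited table with an Rpl, Rps, Rplp or Rpsa symbol, the paralogs whose symbols end in l included and the Rps6k kinases left out. There were 81 such genes among 22239 in the table, of which 14861 were protein coding. Small-subunit genes numbered 32, large-subunit genes outside the stalk 46 and stalk genes 3. The values were taken from bulk RNA sequencing of epithelial cells from the lungs of mice 8 weeks old, sorted by fluorescence after cells bearing CD31 or CD45 had been depleted. Bronchioalveolar stem cells (BASC) were positive for the reporters CCSP-mCherry and SPC-YFP, alveolar type 2 (AT2) cells were sorted on SPC-YFP, and bronchiolar Club cells on CCSP-mCherry, with 2 samples of each. CCSP is the product of the Club cell gene Scgb1a1 and SPC the surfactant protein C of AT2 cells, so each population is defined by a reporter and not by position in the lung. The labels give neither strain nor sex, and nothing in them ties a replicate to an animal of its own, so a p-value here reflects only the spread between these samples.

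The small subunit reads the messenger RNA, and the large subunit joins the amino acids and releases the chain through its exit tunnel. On the large subunit, the stalk of Rplp0 with Rplp1 and Rplp2 recruits the translation factors that use GTP. Ribosomal protein mRNAs of vertebrates usually start with a C followed by a run of pyrimidines, the terminal oligopyrimidine tract, through which mTOR and the RNA-binding protein LARP1 control their translation. AT2 and Club cells are both secretory cells, of surfactant and of airway-lining proteins, and BASC are known as progenitors that can give rise to both.

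The pyrimidine tract is a sequence feature that most members in the promoter table share and is shown here in the window from 50 bases before to 25 bases from an annotated RefSeq start (GRCm38.p6), read 5′ to 3′ on the gene's own strand. Capitals mark the longest run of at least 7 C or T that begins with C and starts between 20 bases before and 30 bases after that start. Rps18 and Rplp2 are shown because their levels lay higher in Club cells, and Rps6 as the target of S6 kinase:
Rps18, chr17:33955641-33955715, minus strand: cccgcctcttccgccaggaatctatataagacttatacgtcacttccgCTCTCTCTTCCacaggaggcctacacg
Rplp2, chr7:141447601-141447675, plus strand: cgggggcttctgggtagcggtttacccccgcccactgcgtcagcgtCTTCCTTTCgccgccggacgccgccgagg
Rps6, chr4:86857343-86857417, minus strand: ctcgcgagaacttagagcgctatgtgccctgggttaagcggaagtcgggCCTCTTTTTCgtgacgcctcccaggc
In these windows the tract lay across or beside the annotated start. They are examples only: Rpl23, Rplp0 and Rpsa, whose Club samples also lay above all others, had no tract in the stretch searched. Whether a tract goes with the direction of a member's difference was not tested. Rps19, whose level lay lowest in Club cells, has 3 annotated starts in the table, and 1 of them had a tract in the stretch searched. Runs further upstream, such as a longer one in the middle window here, lay outside the search and are not marked:
Rps19, chr7:24884542-24884616, plus strand: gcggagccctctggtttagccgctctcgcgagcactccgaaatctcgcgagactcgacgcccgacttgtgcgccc
Rps19, chr7:24884626-24884700, plus strand: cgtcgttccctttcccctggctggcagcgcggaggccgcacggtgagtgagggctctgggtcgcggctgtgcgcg
Rps19, chr7:24884863-24884937, plus strand: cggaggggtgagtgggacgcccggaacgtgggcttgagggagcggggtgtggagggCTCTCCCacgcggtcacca
The paralogs Rpl22l1 and Rpl7l1 are shown because their mean log2 values lay lower in Club cells, as for 14 (against BASC) and 18 (against AT2) of 80 members tested:
Rpl22l1, chr3:28805458-28805532, plus strand: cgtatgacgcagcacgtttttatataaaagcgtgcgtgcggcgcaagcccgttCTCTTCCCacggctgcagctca
Rpl7l1, chr17:46782632-46782706, minus strand: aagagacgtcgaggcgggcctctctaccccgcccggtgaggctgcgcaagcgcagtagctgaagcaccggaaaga

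The promoter table held 61 of the 81 genes, with 73 windows of 250 bases before to 50 after the start. Such a tract was found in 45 of the 73 windows, or 61.6%, against 23.2% of all 32851 windows of the same length. Counted by gene it was found for 42 of 61, or 68.9%, against 26.2%. The ETS-type letters CGGAAG stood on either strand in 60.3% of the members' windows and 16.9% of all windows, or by gene in 67.2% (41 of 61) and 18.8%. CTTTCC on the sense strand near the start was found in 16.4% against 2.55%, and some of these matches are part of a tract. AAGATGGC, the letters of the YY1 motif, stood on either strand in the windows of 6 of 61 genes, 9.84%, against 3.19% of all genes in the table of promoters. A match describes the letters of these windows and is not a bound site.

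Depth and the identity of the samples bear on all values. From the spacing of low values, 1 read was worth between 0.764 and 1.34 units, and the columns came to between 10122640 and 18205636 estimated reads. The median member had a mean of 1354 normalised counts. The AT2 markers were called higher in BASC and in AT2 than in Club cells for 10 of 10 genes, and 9 of 10 Club markers were higher in BASC than in AT2. Ciliated cell markers, 7 of 7 in the table, summed to 945 and 746 in the BASC samples, 714 and 770 in the AT2 samples, and 5808 and 5882 in the Club samples, with Sntn at 0 in all BASC and AT2 samples and at 138 and 140 in the Club samples. Markers of alveolar type 1 (AT1) cells, 7 of 7, summed to 18211 and 17692 in the BASC samples, 18111 and 21298 in the AT2 samples, and 4722 and 4818 in the Club samples. Immune markers, 3 of 9 in the table, summed to 234 and 285 in the BASC samples, 239 and 280 in the AT2 samples, and 130 and 132 in the Club samples. Mesenchymal markers, 5 of 7, summed to between 10 and 240. Of 7 endothelial markers 3 were in the table, and nearly all of their sum came from Kdr, at 689 and 517 in the BASC samples, 1 and 0 in the AT2 samples, and 5510 and 5892 in the Club samples. The ciliated markers and Kdr were thus higher, and the summed AT1 and immune markers lower, in both Club samples. Of the 7 AT1 markers 2 went the other way. Of these, Pdpn had 0 and 0 in the BASC samples, 6 and 17 in the AT2 samples, and 561 and 457 in the Club samples. It was called in both comparisons with Club cells (limma adjusted p = 0.00178 and 0.00951). Of the 3 endothelial markers 2 went opposite to Kdr, and only 1 immune marker was tested. The part of all these markers in the Club values below was not tested. In bulk samples, fewer cells of a type and less RNA per cell cannot be told apart.

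As a module, ribosomal protein genes took a larger share of the values in Club cells than in BASC or AT2. Of all protein-coding values they held 1.19% and 1.21% in the BASC samples, 1.10% and 1.22% in the AT2 samples, and 1.51% and 1.39% in the Club samples. Both Club samples lay above all others, while BASC and AT2 overlapped. The group means were 1.20% ± 0.02 in the BASC samples, 1.16% ± 0.09 in the AT2 samples and 1.45% ± 0.08 in the Club samples (SD, n = 2 each). Scgb1a1 alone is a large part of the Club values, and without it the shares averaged 1.21%, 1.16% and 1.57%. Small-subunit genes made up 37.8% ± 0.6 of the module in the BASC samples, 38.6% ± 1.1 in the AT2 samples and 36.9% ± 0.5 in the Club samples (SD, n = 2 each). Both Club samples, at 37.3% and 36.6%, lay below all others, by a narrow margin from BASC replicate 1, and this difference was not tested.

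Relative to the other genes the separation was smaller. The median member's log2 deviation from its own mean was -0.09 and -0.05 in the BASC samples, -0.15 and 0.03 in the AT2 samples, and 0.23 and 0.08 in the Club samples. The same median over all genes tested was 0.10 and 0.09 in the Club samples and between 0.00 and 0.03 in the others. After subtraction, Club replicate 2 (0.00) lay below AT2 replicate 2 (0.03), so on this scale Club and AT2 overlapped, and only Club replicate 1 (0.13) stood above every BASC and AT2 sample.

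**Figure D1:**
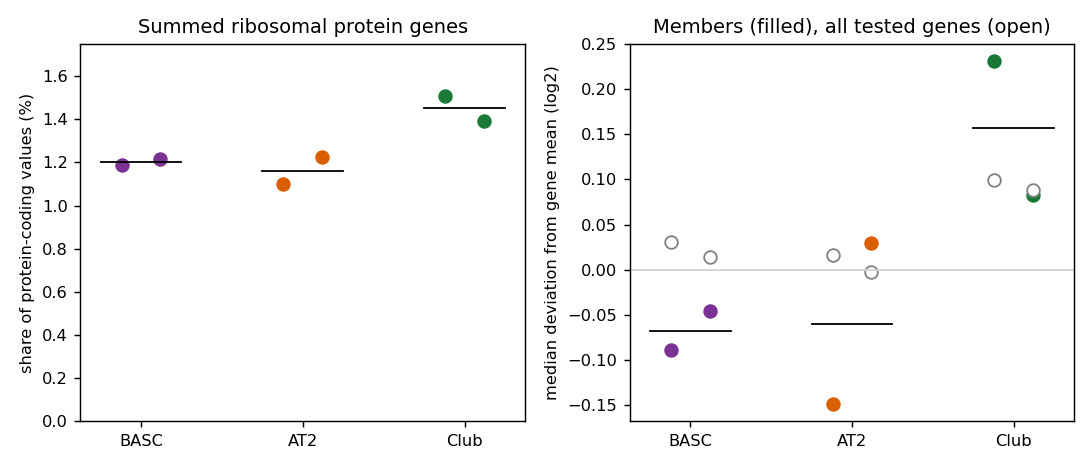
Left, the share of all protein-coding values held by the 81 ribosomal protein genes in each sample (%); right, the median log2 deviation of a gene from its mean over the 6 samples, for members (filled) and all genes tested (open circles). Each point is 1 sample and lines are group means; both Club samples lie highest on the left, and the members lie clearly above all genes only in Club replicate 1 on the right.

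Differences between populations were tested per gene with limma on log2(value + 1) over the 17721 genes that reached 10 in 2 samples or more, with an adjusted p under 0.05 as a call. Of the 81 members 80 were tested, and Rpl3l was too low. Fold changes on this scale understate those of low genes.

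BASC and AT2 were compared to ask whether the double-reporter cells differ from AT2 cells in the genes of their ribosomes. No member was called, against 0.632% of all genes tested (0.553% higher and 0.079% lower in BASC). At an unadjusted p under 0.05, 1 member was higher in BASC (Rplp1) and 2 were lower (Rps29 and Rpl35a), against 7.09% and 6.09% of all genes. The median member differed by a log2 fold change of -0.04, against 0.00 over all genes, and its sign was not stable: it lay between -0.11 and 0.05 with 1 sample left out and between -0.010 and 0.018 under upper quartile, total and quantile scaling. Members spread less than the genes tested as a whole: their median absolute log2 fold change was 0.16, against 0.49 over all genes, and 73 of 80 lay within 0.5 of zero. These sets differ in level, with a mean of at least 1000 for 52 of 80 members and 2220 of 17721 genes. Fold changes were not compared at like level. The BASC samples lay above both AT2 samples for 12 members and below both for 16, shares close to those over all genes (18.3% and 18.9%).

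Rplp1 had 3396 and 3720 normalised counts in the BASC samples and 2376 and 3125 in the AT2 samples. Both BASC samples lay above both AT2 samples, by a log2 fold change of 0.38 ± 0.15 (SE, n = 2 per group, limma adjusted p = 0.339), which lay between 0.19 and 0.58 with 1 sample left out. Rps29, a small-subunit protein with a zinc finger, had 485 and 375 in the BASC samples and 632 and 611 in the AT2 samples (-0.54 ± 0.21, adjusted p = 0.330). Rpl35a, a large-subunit protein gene mutated in some patients with Diamond-Blackfan anaemia, had 376 and 279 in the BASC samples and 467 and 588 in the AT2 samples (-0.69 ± 0.27, adjusted p = 0.333). In these 3 genes the groups did not overlap, but the differences did not pass adjustment over all genes.

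BASC and Club cells were compared to ask the same of the cells that share the CCSP reporter. Most members lay lower in BASC, with single differences too small to be called. The fold change was negative in 66 of 80 members and its median was -0.22, against -0.10 over all genes. The BASC samples lay below both Club samples for 45 members and above both for 4, against 30.1% and 23.9% of all genes. One member, Rps19, was called, and it was higher in BASC, while 11.2% of all genes were called (5.77% higher and 5.42% lower). At an unadjusted p under 0.05, 18 members were lower and 1 was higher, against 13.3% and 11.3% of all genes. The median was between -0.30 and -0.20 under upper quartile, total and quantile scaling.

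AT2 and Club cells gave a similar picture, and these comparisons share the Club samples. The fold change was negative in 62 of 80 members, with a median of -0.23 against -0.10 over all genes. The AT2 samples lay below both Club samples for 40 members and above both for 5, against 32.0% and 26.0% of all genes. Rps19 was called higher in AT2, and Rplp1 and Rps18 were called lower, 3 of 80 against 18.1% of all genes (8.42% higher and 9.71% lower). At an unadjusted p under 0.05, 18 members were lower and 1 was higher, against 16.6% and 13.9% of all genes. The median was -0.29 over the large-subunit members outside the stalk and -0.12 over those of the small subunit, and this difference was not tested. The median over all members was -0.10 without AT2 replicate 1, against -0.08 over all genes.

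**Figure D2:**
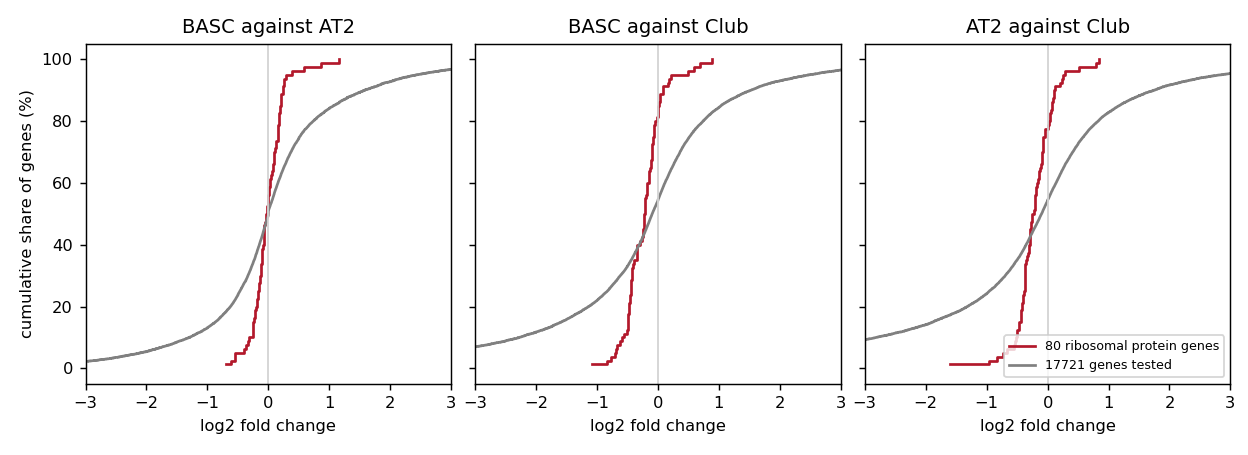
Cumulative share of genes (%) by log2 fold change in each of the 3 comparisons, for 80 ribosomal protein genes (red) and 17721 genes tested (grey), with the x axis limited to 3 on either side. The members' curve is steeper than that of all genes in each panel and is moved to the left of zero in both comparisons against Club cells. The curves are not matched for level.

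In all, both Club samples lay above all 4 other samples for 32 of 80 members, against 20.5% of all genes, and below them for 3, against 15.4%. The 3 were Rps19, Rpl21 and Rpl7l1.

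Rps19 encodes a small-subunit protein needed to process the precursor of the small ribosomal RNA, and it is the gene first linked to Diamond-Blackfan anaemia. The gene (ENSMUSG00000040952) lies on the plus strand of chromosome 7, 24884371 to 24889806 (GRCm38). It had 2000 and 2053 normalised counts in the BASC samples, 2105 and 2277 in the AT2 samples, and 1255 and 1271 in the Club samples, from between 1224 and 2757 estimated reads per sample. Both Club samples lay far below the rest, in the opposite direction to most members, while BASC lay just below AT2. The log2 fold change to Club cells was 0.68 ± 0.13 for BASC (SE, n = 2 per group, limma adjusted p = 0.0158) and 0.79 ± 0.13 for AT2 (adjusted p = 0.00540). The call against Club cells in BASC was lost without a trend (adjusted p = 0.196). It was also lost with either BASC sample or either Club sample left out, where the log2 fold change lay between 0.66 and 0.70. With scaling on the members' median its adjusted p was 0.00548. That scaling, chosen after seeing the data, by construction widens the difference of a member that runs opposite to most. The call in AT2 was lost only without a trend (0.109). BASC and AT2 differed by -0.11 ± 0.13 (adjusted p = 0.762). No exon of Rps19 overlaps an exon of another gene in GENCODE M21, and 15.2% of the 50-base stretches of its coding transcripts occur in another annotated gene.

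Rpl21, a large-subunit protein gene, had 3383 and 3147 in the BASC samples, 3236 and 3649 in the AT2 samples, and 2959 and 2828 in the Club samples. The Club values lay lowest by a small margin, with adjusted p = 0.451 for BASC and 0.219 for AT2 against Club cells.

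The stalk genes lay higher in Club cells. Rplp1 (ENSMUSG00000007892, chromosome 9, 61913284 to 61914542, minus strand) had 3396 and 3720 in the BASC samples, 2376 and 3125 in the AT2 samples, and 5271 and 5373 in the Club samples. Its order, AT2 lowest and Club highest with BASC between, held without overlap. The log2 fold change of AT2 against Club cells was -0.97 ± 0.15 (SE, n = 2 per group, limma adjusted p = 0.00502), lost only without a trend (0.101). BASC lay below Club cells by -0.58 ± 0.15 (adjusted p = 0.0513), just outside the threshold and called in 8 of 17 alternatives.

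Rplp2, which pairs with Rplp1 on the stalk, had 3412 and 3153 in the BASC samples, 3163 and 3827 in the AT2 samples, and 4422 and 4353 in the Club samples. BASC against Club cells differed by -0.42 ± 0.13 (limma adjusted p = 0.0900) and AT2 against Club cells by -0.33 ± 0.13 (adjusted p = 0.130). Rplp0, the base of the stalk and a common reference gene in PCR, had 3882 and 3887 in the BASC samples, 3969 and 4109 in the AT2 samples, and 4960 and 4423 in the Club samples. Neither passed the test, though for both the Club samples lay above all others.

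Among small-subunit genes, Rps18 (ENSMUSG00000008668, chromosome 17, 33951999 to 33955717, minus strand) was called. It had 828 and 865 in the BASC samples, 774 and 648 in the AT2 samples, and 1201 and 1145 in the Club samples, again with AT2 lowest and no overlap. AT2 lay below Club cells by -0.73 ± 0.17 (SE, n = 2 per group, limma adjusted p = 0.0244) and BASC by -0.47 ± 0.17 (adjusted p = 0.134). The AT2 call was lost without a trend (adjusted p = 0.150), with scaling on the members' median (0.142), and without AT2 replicate 2 (0.0871) or either Club sample (0.185 and 0.137). Of the 50-base stretches of Rps18, 79.4% occur in other annotated genes, and its exons overlap 156 bases of Vps52 on the opposite strand, so its reads could be split or shared.

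Rps2 had 715 and 871 in the BASC samples, 779 and 957 in the AT2 samples, and 1302 and 1142 in the Club samples (BASC against Club cells -0.63 ± 0.19, limma adjusted p = 0.0852). Rpsa, also known as the laminin receptor precursor, had 3675 and 3361 in the BASC samples, 3366 and 3695 in the AT2 samples, and 5416 and 4191 in the Club samples (adjusted p = 0.118 for BASC and 0.0929 for AT2 against Club cells). In both genes the Club samples lay above all others, although the Club samples of Rpsa were far apart. Rps6, the ribosomal protein phosphorylated by S6 kinase downstream of mTOR, had 1496 and 1180 in the BASC samples, 1107 and 1436 in the AT2 samples, and 1608 and 1640 in the Club samples (adjusted p = 0.415 and 0.248 against Club cells). Rps27a, made as a fusion with ubiquitin, had 1084 and 1019 in the BASC samples, 1115 and 1232 in the AT2 samples, and 1369 and 1114 in the Club samples. AT2 and Club cells overlapped, and both BASC samples lay below all others (limma adjusted p = 0.738 against AT2 and 0.464 against Club cells).

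Among large-subunit genes outside the stalk, Rpl23, whose product can also bind MDM2, came closest to a call. It had 1770 and 1702 in the BASC samples, 1926 and 1815 in the AT2 samples, and 2620 and 2299 in the Club samples, and BASC lay below Club cells by -0.50 ± 0.13 (SE, n = 2 per group, limma adjusted p = 0.0535). Rpl5 and Rpl11 bind MDM2 when ribosome assembly fails. Rpl5 had 2047 and 1851 in the BASC samples, 1597 and 1702 in the AT2 samples, and 2150 and 1947 in the Club samples, so that BASC and Club cells overlapped with AT2 below both. Rpl11 had 1279 and 1207 in the BASC samples, 1002 and 1182 in the AT2 samples, and 1434 and 1238 in the Club samples, in the same arrangement. Neither was called in any comparison, and AT2 against Club cells gave adjusted p = 0.168 for Rpl5 and 0.286 for Rpl11.

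**Figure D3:**
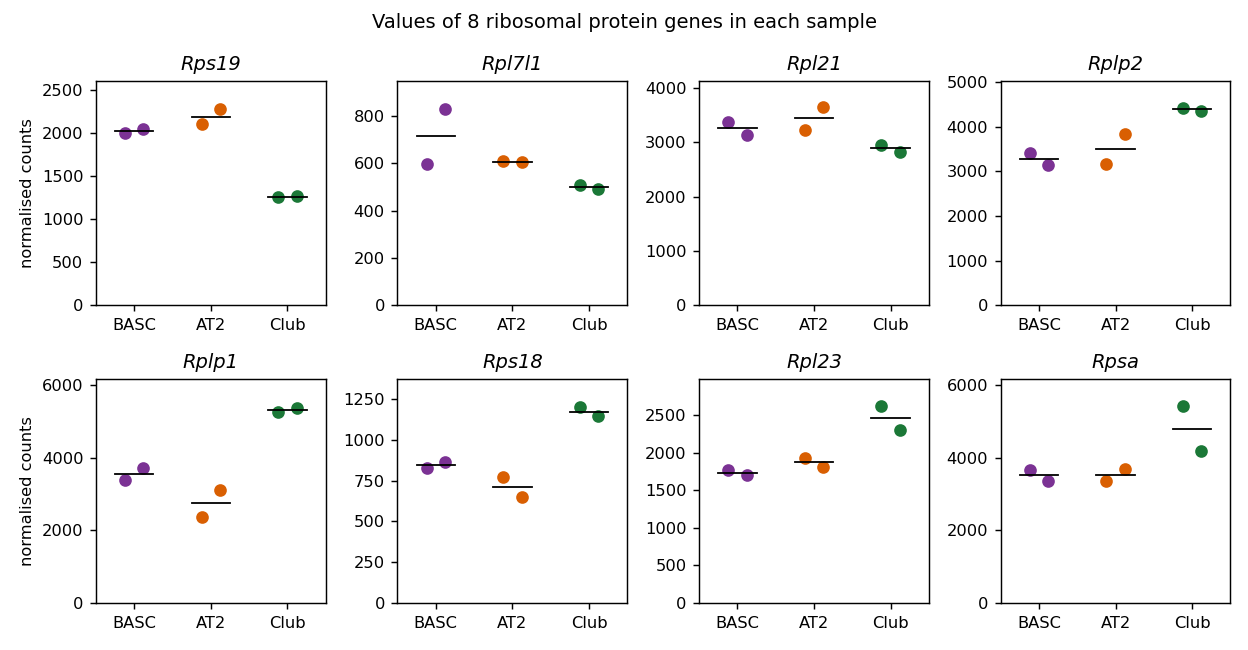
Normalised counts of 8 ribosomal protein genes in each sample, on linear axes that start at 0; each point is 1 sample and lines are group means. Rps19, Rpl7l1 and Rpl21 lie lowest in Club cells, and Rplp2, Rplp1, Rps18, Rpl23 and Rpsa highest.

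Levels between genes were compared per kb of annotated exons. The highest member was Rplp1, at 7769 normalised counts per kb, followed by Rpl8 at 3874, Rpl36 at 2943, Rpl4 at 2857 and Rplp0 at 2535. Rpl8, whose protein lies near the peptidyl transferase centre, had 4866 and 5120 normalised counts in the BASC samples, 5113 and 5433 in the AT2 samples, and 5680 and 5373 in the Club samples. Rpl36 had 932 and 985 in the BASC samples, 1020 and 1227 in the AT2 samples, and 1354 and 1245 in the Club samples. Rpl4, which lines the exit tunnel, had 5305 and 5672 in the BASC samples, 5181 and 5337 in the AT2 samples, and 6763 and 6141 in the Club samples. For Rpl36 and Rpl4 the Club samples lay above all others, and for Rpl8 Club and AT2 overlapped.

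At the low end were Rpl39 at 57.4 per kb, Rpl13a at 44.6, Rpl36al at 17.2, Rpl23a at 8.46 and Rpl3l at 5.07. Rpl39, a small protein of the exit tunnel, had 139 and 24 normalised counts in the BASC samples, 53 and 65 in the AT2 samples, and 87 and 126 in the Club samples. Rpl13a had 121 and 137 in the BASC samples, 52 and 96 in the AT2 samples, and 120 and 40 in the Club samples. Rpl23a had 1 and 17 in the BASC samples, 0 and 15 in the AT2 samples, and 2 and 8 in the Club samples, values around the 2.29 to 4.02 units that 3 reads are worth. For Rpl39, Rpl13a and Rpl23a the widest difference between replicates exceeded the range of the group means on the log2 scale. Of the 50-base stretches of Rpl23a 85.7% occur in other annotated genes, and 59.7% of its exon bases overlap Tlcd1 on the opposite strand. Low values of such genes need not be low transcript levels. Of the 81 members 79 share some 50-base stretch with another annotated gene, and Spearman's rho of that share with the level per kb was 0.09 (n = 81, genes are not independent replicates). The median level per kb was 433 for the 20 members with under 25% of stretches shared, 810 for the 51 with 25% to 75% and 461 for the 10 with more.

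The order of the members' levels was nearly the same in the 3 populations. Spearman's rho of the levels per kb across 80 genes was 0.991 between BASC and AT2, 0.984 between BASC and Club cells and 0.983 between AT2 and Club cells, as a description of genes that share libraries and lengths.

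**Figure D4:**
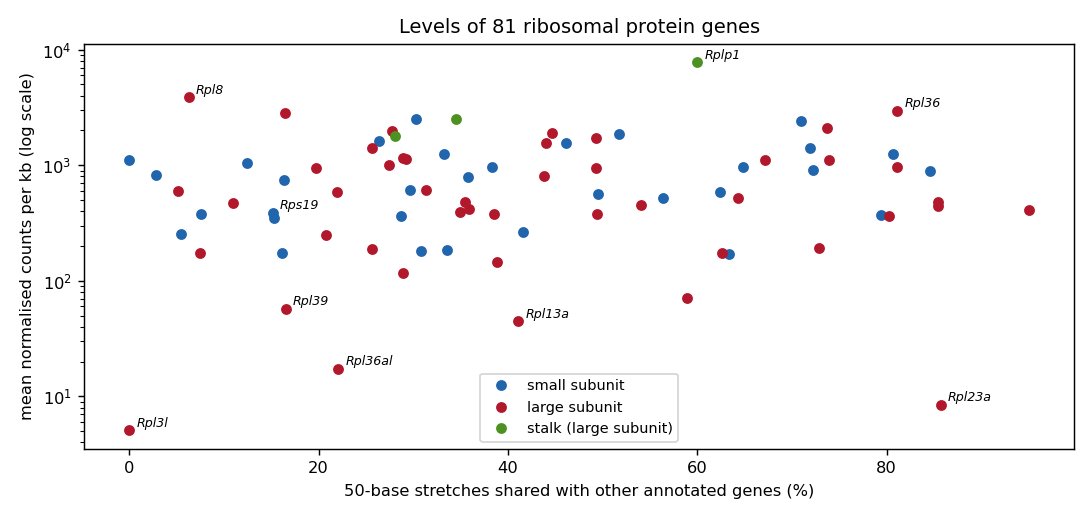
Mean level of each of the 81 members over the 6 samples, in normalised counts per kb of exons on a log axis, against the percentage of 50-base stretches of its transcripts that occur in other annotated genes; colours mark the subunit. Low and high levels occur both at low and at high sharing, and the 5 lowest members, down to Rpl3l at 5.07, are spread along the x axis.

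Replicates of each group were close in the members. Their median absolute difference on the log2 scale was 0.17 in the BASC samples, 0.24 in the AT2 samples and 0.18 in the Club samples, against 0.54, 0.54 and 0.35 over all genes tested. Much of this goes with level: among genes with a mean of at least 1000 it was 0.13, 0.16 and 0.12 for 52 members and 0.17, 0.19 and 0.13 for 2220 genes. The difference exceeded 1.96 times the counting error in 56 members for BASC, 57 for AT2 and 51 for Club cells. Of the 80 members, AT2 replicate 2 was the higher for 62 and Club replicate 1 for 59, while in BASC the split was 35 for replicate 1 and 45 for replicate 2. The median difference between replicates was at least as wide as the 0.16 between BASC and AT2. These are unlike measures: the former is between single samples, the latter between means of 2 samples, which vary less.

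The widest differences between replicates among members with a mean of at least 100 were those of Rpl38, Rpl22l1, Rpl27, Rps13 and Rps16. Rpl38, known in mouse embryos for the translation of Hox mRNAs, had 606 and 267 in the BASC samples, 455 and 617 in the AT2 samples, and 685 and 617 in the Club samples. Rpl27 had 193 and 107 in the BASC samples, 232 and 189 in the AT2 samples, and 374 and 251 in the Club samples. Rps13 had 480 and 499 in the BASC samples, 302 and 531 in the AT2 samples, and 620 and 523 in the Club samples. In Rpl38 and Rpl27 the wide pair was that of BASC, and in Rps13 that of AT2. Rps16 had 315 and 180 in the BASC samples, 390 and 340 in the AT2 samples, and 427 and 352 in the Club samples, again with the BASC pair the widest.

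Paralogs were set against their partners within each sample, as the log2 ratio of value + 1, in which a sample's scaling cancels except for the added 1. Rpl7l1, known in human cells from particles of ribosome assembly, had 598 and 830 in the BASC samples, 609 and 605 in the AT2 samples, and 507 and 492 in the Club samples. Its partner Rpl7 had 4651 and 4403 in the BASC samples, 4134 and 4151 in the AT2 samples, and 5285 and 4976 in the Club samples. The log2 ratio of Rpl7l1 to Rpl7 was -2.96 and -2.41 in the BASC samples, -2.76 and -2.78 in the AT2 samples, and -3.38 and -3.34 in the Club samples. The Club ratios lay below all others, by 0.68 from BASC and 0.59 from AT2 (2-sided exact permutation test, p = 0.333 each, the smallest that 2 samples against 2 allow).

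Rpl22l1, the paralog of the RNA-binding protein gene Rpl22, had 113 and 177 in the BASC samples, 127 and 224 in the AT2 samples, and 66 and 134 in the Club samples. Rpl22 had 1693 and 1807 in the BASC samples, 1484 and 1592 in the AT2 samples, and 2033 and 1827 in the Club samples. Their log2 ratio was -3.89 and -3.34 in the BASC samples, -3.54 and -2.82 in the AT2 samples, and -4.92 and -3.76 in the Club samples, with BASC and Club cells overlapping. Rps27l, known in human cells as a target of p53, had 123 and 90 in the BASC samples, 168 and 105 in the AT2 samples, and 179 and 181 in the Club samples. Its log2 ratio to Rps27 was -3.62 and -4.28 in the BASC samples, -2.98 and -4.22 in the AT2 samples, and -3.09 and -3.11 in the Club samples. The 2 AT2 samples lay on either side of the Club samples.

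Rpl36al had 16 and 34 in the BASC samples, 7 and 14 in the AT2 samples, and 47 and 22 in the Club samples, and its partner Rpl36a had 611 and 643 in the BASC samples, 722 and 768 in the AT2 samples, and 887 and 759 in the Club samples. Their log2 ratio was -5.17 and -4.20 in the BASC samples, -6.50 and -5.68 in the AT2 samples, and -4.21 and -5.05 in the Club samples, lowest in AT2 (2-sided exact permutation p = 0.333 for each comparison with AT2). Rpl3l, the form of Rpl3 known from striated muscle of mice, had 9 and 3 in the BASC samples, 19 and 9 in the AT2 samples, and 7 and 3 in the Club samples, close to the value of a few reads. Rpl3 had 3781 and 3050 in the BASC samples, 3263 and 3483 in the AT2 samples, and 3876 and 3599 in the Club samples. Their log2 ratio was -8.56 and -9.58 in the BASC samples, -7.35 and -8.44 in the AT2 samples, and -8.92 and -9.81 in the Club samples, highest in AT2 (2-sided exact permutation p = 0.333 for each comparison with AT2). Rps27 had 1526 and 1761 in the BASC samples, 1337 and 1978 in the AT2 samples, and 1528 and 1567 in the Club samples. Rpl39l and Rpl10l were not analysed here.

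**Figure D5:**
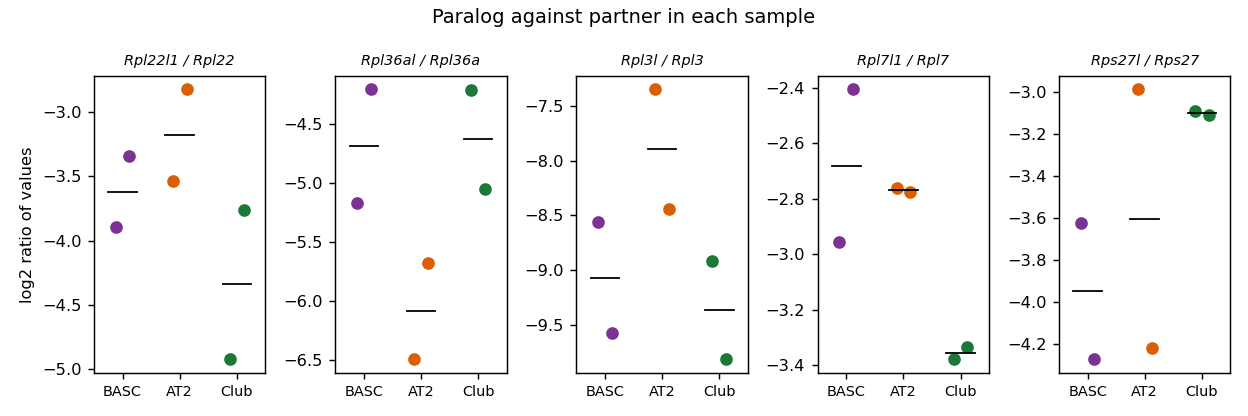
Log2 ratio of each paralog's value + 1 to that of its partner in each sample, with a scale of its own in each panel; points are samples and lines group means. The Club samples lie lowest for Rpl7l1, at -3.38 and -3.34, and the AT2 samples lie lowest for Rpl36al and highest for Rpl3l; for Rpl22l1 BASC and for Rps27l AT2 overlap both other groups.

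Fau and Rack1, genes of cytosolic ribosomal proteins outside the symbol rule, were not called in any comparison. Fau, made as a fusion with a ubiquitin-like protein, had 1490 and 1375 in the BASC samples, 1194 and 1469 in the AT2 samples, and 1725 and 1682 in the Club samples. Rack1, a scaffold on the small subunit, had 3848 and 4352 in the BASC samples, 3163 and 4175 in the AT2 samples, and 4581 and 4114 in the Club samples. For Fau both Club samples lay highest, as for 32 of the 80 members. The 77 mitochondrial ribosomal protein genes had median log2 fold changes of -0.07 (BASC to AT2), -0.25 (BASC to Club) and -0.26 (AT2 to Club), close to those of the members. Mrps9 was called higher in BASC than in Club cells, at 754 and 1050 in the BASC samples and 213 and 313 in the Club samples (limma adjusted p = 0.0110), and Mrpl39 lower in AT2 than in Club cells, at 186 and 108 in the AT2 samples and 520 and 444 in the Club samples (limma adjusted p = 0.0121). Each made up 1.30% of the list, against 11.2% and 18.1% of all genes tested.

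Of 37 translation factor genes none was called in BASC against AT2, where 2 were higher and 3 lower at an unadjusted p under 0.05. Eif3g and Pabpc1 were called lower in BASC than in Club cells, and Pabpc1 and Eif4b lower in AT2 than in Club cells. In each of these comparisons 5.41% of the list was called, against 11.2% and 18.1% of all genes tested. Pabpc1, the cytosolic poly(A)-binding protein whose mRNA also carries a pyrimidine tract, had 3924 and 4503 in the BASC samples, 3242 and 3295 in the AT2 samples, and 5952 and 5907 in the Club samples (limma adjusted p = 0.0335 and 0.00238 against Club cells). The elongation factor gene Eef1a1, a mRNA of the same class, had 18620 and 19392 in the BASC samples, 18377 and 19697 in the AT2 samples, and 19865 and 19206 in the Club samples, with no difference beyond the replicates.

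Among 74 ribosome biogenesis genes, Heatr1, a factor for ribosomal RNA transcription, had 765 and 897 in the BASC samples, 3243 and 2734 in the AT2 samples, and 483 and 514 in the Club samples. It was lower in BASC than in AT2 (adjusted p = 0.00592) and was the only called gene of that list in this comparison, while Heatr1 was higher and Gtpbp4 lower in BASC than in Club cells. In AT2 against Club cells 3 were higher (Heatr1, Tcof1 and Polr1c) and 6 lower (Gtpbp4, Ddx47, Gnl3, Gnl2, Bms1 and Wdr43). Calls made up 1.35% of the list for BASC to AT2, 2.70% for BASC to Club and 12.2% for AT2 to Club. Over all genes tested these shares were 0.632%, 11.2% and 18.1%. Tcof1, a nucleolar factor of ribosomal RNA transcription, had 706 and 553 in the BASC samples, 1326 and 1322 in the AT2 samples, and 371 and 521 in the Club samples (AT2 against Club cells, adjusted p = 0.00350).

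Of 25 genes of mTOR and translation control none was called in BASC against AT2, with 2 lower at an unadjusted p under 0.05. Pdcd4, an inhibitor of the helicase eIF4A, had 72 and 125 in the BASC samples, 134 and 77 in the AT2 samples, and 1332 and 1429 in the Club samples (adjusted p = 0.00136 and 0.000925 against Club cells). Eif4ebp2, a repressor of cap-dependent translation under mTOR, had 939 and 976 in the BASC samples, 935 and 905 in the AT2 samples, and 1962 and 2086 in the Club samples (adjusted p = 0.00353 and 0.00174). Larp4b was also lower in BASC and AT2 than in Club cells, and Eif2ak4, the amino acid sensing kinase GCN2, was higher in both. Deptor and Sesn2, inhibitors of mTOR signalling, were called higher in AT2 than in Club cells and not called in the comparisons with BASC. In all, 1 gene of the list was higher and 3 were lower in BASC than in Club cells, and 3 were higher and 3 lower in AT2 than in Club cells. That was 16% and 24% of the list, against 11.2% and 18.1% of all genes tested.

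Of 10 MYC network genes Mycl was called in all 3 comparisons, at 117 and 169 in the BASC samples, 4 and 7 in the AT2 samples, and 1125 and 1500 in the Club samples. It made up 10% of the list in each, against 0.632% (BASC to AT2), 11.2% (BASC to Club) and 18.1% (AT2 to Club) of all genes tested. The p53 target Cdkn1a, of 10 genes of the checkpoint that senses free ribosomal proteins, had 375 and 605 in the BASC samples, 621 and 630 in the AT2 samples, and 112 and 78 in the Club samples (adjusted p = 0.00521 and 0.00161 against Club cells). Ccng1, another p53 target of that list, was lower in AT2 than in Club cells, at 752 and 688 in the AT2 samples and 1406 and 1164 in the Club samples (limma adjusted p = 0.0255). Calls made up 10% (BASC to Club) and 20% (AT2 to Club) of that list, against 11.2% and 18.1% of all genes tested. Of 13 ribosome quality control genes, 1 was higher and 1 lower in BASC than in Club cells, and 3 were higher and 2 lower in AT2 than in Club cells. That was 15.4% and 38.5% of the list, against 11.2% and 18.1% of all genes tested. Ascc2, a subunit of the complex that takes apart collided ribosomes, had 2087 and 2458 in the BASC samples, 1328 and 1528 in the AT2 samples, and 10658 and 9668 in the Club samples (adjusted p = 0.000126 and 2.37e-05). Nemf, which marks stalled chains on the large subunit, had 2570 and 2433 in the BASC samples, 2164 and 2261 in the AT2 samples, and 1366 and 1087 in the Club samples (adjusted p = 0.00579 and 0.00812). Among 15 chaperones and importins of ribosomal proteins, Ipo4 was lower in AT2 than in Club cells, at 127 and 227 in the AT2 samples and 487 and 499 in the Club samples (limma adjusted p = 0.0178), and none was called in the comparisons with BASC. Ipo4 made up 6.67% of the list, where 18.1% of all genes tested were called. Of 13 non-coding snoRNA host genes none was called, and at an unadjusted p under 0.05 there were 1 higher and 1 lower in the BASC to AT2 comparison and 0 higher and 1 lower in each comparison with Club cells.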

How the data were processed

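RNA of 6 samples, 2 each of sorted BASC, AT2 and Club cells, was sequenced after library preparation from picogram amounts with a stranded total RNA kit, per the labels. Per the submitters' processing notes, the tools were FastQC, the aligner STAR 2.4.0a, and featureCounts 1.4.5-p1 of Subread, on mm10 (GRCm38). The deposited values are a signal per gene, read counts that the authors scaled per sample and rounded to whole numbers. Scaling method, strand setting and annotation: not given in the sources used here. Whole reads could not be recovered, so no count model was run, and counting errors, from estimated reads, cover counting only, since reads carry no molecular identifiers.

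A limma 3.58.1 fit (R 4.3.3) took the 3 groups of all 6 samples on log2(value + 1), with an eBayes trend, 3 residual and 4.20 prior degrees of freedom, 2-sided tests and Benjamini-Hochberg adjustment over 17721 genes, tested on simulated data. Exon lengths, overlaps and shared 50-base stretches came from GENCODE M21 (GRCm38), in which 58 of 81 members have the deposited coordinates. Promoter windows came from RefSeq (GRCm38.p6). Members and gene lists were chosen with earlier results of these data known. Values per sample were given for called members, paralogs, stalk genes, the 5 highest and lowest per kb, the 5 with the widest replicate difference, a set of members with known further roles and selected called genes of the lists; Rpl21, Rpl23, Rps29, Rpl35a and Eef1a1 were added after their values were seen. Alternatives covered pseudocounts of 0.5 and 8, filters, scalings, the trend, the samples fitted, a replicate block and leaving out each sample.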

Additional observations from a re-analysis of the deposited data

How the results depend on the processing

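Among the pairs of a member and a comparison that were followed under the alternatives, which do not cover all members, 39 values passed the threshold that had not, 12 lost it and none changed direction. For BASC against Club cells, the count of members called was 3 with a pseudocount of 8, 6 with a filter of at least 100, 4 with total scaling, 5 with quantile normalisation, 0 without a trend, 2 in a fit of the 2 groups and between 0 and 2 with 1 sample left out. For AT2 against Club cells it was 6 with a filter of at least 100, 12 with total scaling, 13 with quantile normalisation and 0 without a trend. Added calls were those of members lower than Club cells. Of all genes, 329 were called in BASC against AT2 with a filter of at least 100, and between 3 and 112 with 1 sample left out. Without a trend, 1183 were called between BASC and Club cells and 2028 between AT2 and Club cells, and with 1 sample left out between 853 and 1888 and between 1539 and 3291.

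The median log2 fold change of members was 0.00058 (BASC to Club) and -0.015 (AT2 to Club) with scaling on the members' median, a setting chosen after seeing the data that brings this value near 0 by construction, and -0.36 in AT2 against Club cells with total scaling. With 1 sample left out it lay between -0.31 and -0.10 in AT2 against Club cells. The median of all genes was -0.10 in both comparisons with Club cells as deposited. It became 0.01 for BASC and 0.03 for AT2 with quantile normalisation, -0.22 for AT2 with total scaling, and 0.12 and 0.11 with scaling on the members' median. Relative to the median of all genes, that of the members lay between -0.36 and -0.12 in both comparisons with Club cells under each scaling. Higher calls made up 51.5% of calls for BASC and 46.5% for AT2 in these comparisons, and 63.7% and 56.9% with scaling on the members' median.

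The module's share averaged 0.904%, 0.874% and 1.09% of all genes in BASC, AT2 and Club cells, and 1.05%, 1.02% and 1.27% without the 3 highest members. Of protein-coding values outside the mitochondrial chromosome it averaged 1.23%, 1.19% and 1.49% in the same order. With a pseudocount of 8 the log2 ratio was -7.96 in BASC and -8.19 in Club cells for Rpl3l, -5.37 in AT2 for Rpl36al, -2.75 in AT2 for Rpl7l1, -3.05 in Club cells for Rps27l and -3.85 in Club cells for the pseudogene Rps4l. Each of these settings alters the measure itself, in its total, its members or its added value, and so moves the result by construction. Whether the replicate numbers pair the samples is not given in the labels. Differences between replicates 1 and 2 correlated across groups at 0.006 to 0.012 over all genes. Over genes with a mean of at least 100 they correlated at 0.057 to 0.092. Such correlations cannot decide the pairing, since they do not trace samples to animals. With the replicate block 2 members were called in BASC against Club cells, Rplp1 being added, and the counts of members called in the other comparisons did not change.

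Precision is limited by 2 samples per group and by low values: a member at 3 reads or fewer cannot be told from 0, and reads shared with pseudogenes cannot be assigned here.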

Other observations

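The introns of ribosomal protein genes hold small nucleolar RNAs (snoRNAs), guides for the modification of ribosomal RNA. In GENCODE M21, 51 snoRNA genes of the table lay within 27 of the members on the same strand. Their values summed to 9575 and 11668 in the BASC samples, 5080 and 10333 in the AT2 samples, and 7114 and 9816 in the Club samples. The highest, Snord15b within Rps3, had 3935 and 4471 in the BASC samples, 2106 and 3981 in the AT2 samples, and 2744 and 3990 in the Club samples, while its host had 3594 and 3411 in the BASC samples, 3743 and 4249 in the AT2 samples, and 3508 and 3429 in the Club samples. AT2 replicate 1 was the lowest sample for 27 of the 51, a count made after the values were seen, and for 83 of 292 snoRNAs in the table as a whole. The groups overlapped, with AT2 replicate 2 above BASC replicate 1 and the Club samples within the range of AT2. Without Snord15b the sums were 5640 and 7197 in the BASC samples, 2974 and 6352 in the AT2 samples, and 4370 and 5826 in the Club samples.

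Ribosomal protein pseudogenes, 100 in the table, held between 1.07% and 1.25% of the summed values of members and pseudogenes. Both AT2 samples, at 1.23% and 1.25%, lay above all others, while BASC and Club cells overlapped. This difference was not tested. The highest, Rps6-ps4, had 265 and 96 in the BASC samples, 135 and 171 in the AT2 samples, and 224 and 188 in the Club samples. Rps4l, annotated as a transcribed processed pseudogene, had 7 and 35 in the BASC samples, 121 and 143 in the AT2 samples, and 103 and 78 in the Club samples. Its log2 ratio to Rps4x was lowest in BASC, at -7.10 and -5.65 in the BASC samples, -3.32 and -3.71 in the AT2 samples, and -3.91 and -3.99 in the Club samples (2-sided exact permutation p = 0.333 for each comparison with BASC, the smallest that 2 samples against 2 allow).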
